A study of Mus musculus with 3 samples.

Results

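The Toll-like receptors are a family of innate immune receptors, and 10 of their genes, Tlr1 to Tlr9 and Tlr12, were followed here out of 24346 genes listed for mouse intestinal epithelium. The members were chosen by gene symbol and not by a rule on their values, though with earlier results of these data known. The epithelial cells came from the large intestine and from the lower and upper parts of the small intestine, and RNA sequencing was done on 1 library per region. In each region the epithelium was released from the opened gut by shaking for 20 min at 37 °C with 5 mM EDTA. No sorting of cells is described in the labels. The source name of every library begins with SPFm, so this prefix marks no difference between them. The labels give no age, sex, treatment or number of animals for any library. A strain entry appears for the upper small intestine alone, naming a colorectal cancer model with MC38. Should it hold, differences from the upper library cannot be told apart from strain, whereas large against lower small intestine does not involve it. With 1 library per region, no difference below has a replicate check or a p-value, and each describes these libraries.

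Each Toll-like receptor binds a kind of microbial molecule and passes the signal on through adaptor proteins, mainly MyD88 and TRIF, to kinases that activate NF-kappa B and interferon regulatory factors. TLR1, TLR2, TLR4, TLR5 and TLR6 sit mainly at the cell surface and sense lipoproteins, lipopolysaccharide and flagellin. TLR3, TLR7, TLR8, TLR9 and TLR12 sit mainly in endosomes, where all but TLR12 sense nucleic acids and TLR12 senses a profilin of protozoan parasites. In the gut these receptors stand between the epithelium and a dense flora, and both epithelial cells and leukocytes can express them.

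The values are FPKM, which corrects fragment counts for transcript length and library size, so that levels of different genes can be compared per length. Where 3 values are given for a gene, the first is from the large intestine, the second from the lower and the third from the upper small intestine. The spacing of low values gave the worth of 1 read in each library, and with it an estimate of the reads behind each member. Intervals are exact, at the 95% level, from these estimated reads. They cover counting error only, since the spread between animals or preparations was not measured and copies of 1 molecule cannot be recognised without molecular identifiers. The 3 libraries had 11589, 11595 and 11491 genes at 1 FPKM or more. Epithelial markers were high in every library, with 8 markers summing to 7844, 8466 and 6078 FPKM and none of them under 150.5 FPKM.

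The surface receptors made up most of the family's transcripts in the large intestine, and Tlr3 made up most of them in the small intestine. The 10 genes summed to 62.6, 27.3 and 17.0 FPKM. Tlr1 alone held 51.7%, 25.3% and 15.9% of these sums. Tlr3 held 17.4%, 51.5% and 72.8%. The 5 surface receptors together held 82.5%, 46.5% and 25.2% of the sum.

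**Figure D1:**
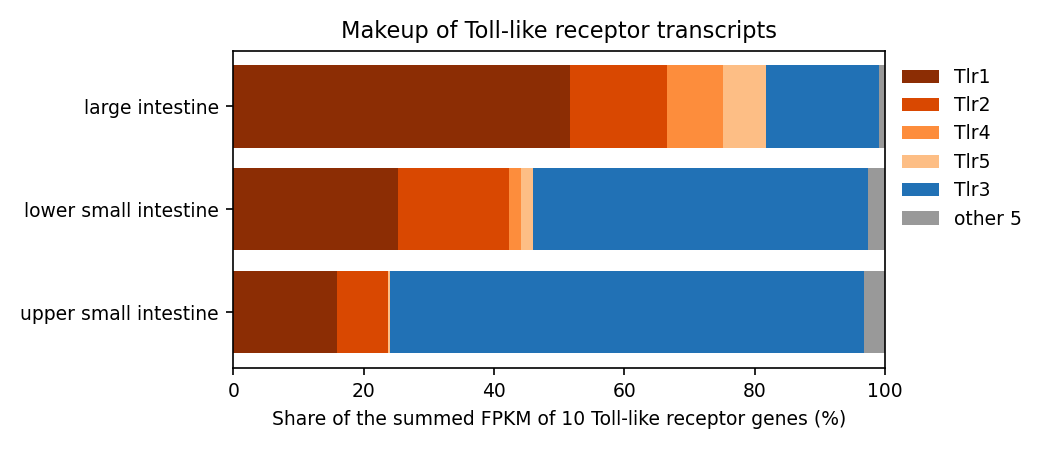
Share of the summed FPKM of the 10 Toll-like receptor genes (x axis, %) taken by each gene in each library (y axis, 1 library per region), with Tlr6, Tlr7, Tlr8, Tlr9 and Tlr12 pooled as the other 5. Tlr1 is the longest segment in the large intestine at 51.7%, and Tlr3 is the longest in both small intestinal libraries.

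Tlr1 encodes the partner of TLR2 in sensing triacylated lipoproteins of bacteria. It was the most abundant member in the large intestine, at 32.4, 6.90 and 2.70 FPKM, from about 764, 211 and 55 reads. The large intestine was high, the upper small intestine low and the lower small intestine between them, and their counting intervals of 30.1 to 34.8, 5.9998 to 7.90 and 2.02 to 3.50 FPKM did not overlap. The large to lower ratio was 4.69 (4.03 to 5.49) and the large to upper ratio 12.01 (9.16 to 16.1). Tlr1 in the upper library was 0.391 (0.284 to 0.526) of its level in the lower library. The gene lies on chromosome 5 at 64924679 to 64933563 (mm10, minus strand, protein coding, ENSMUSG00000044827.10). Among all genes measured in each comparison, 3.05% had a difference in favour of the large intestine at least as large as that of Tlr1 against the lower library, and 1.61% against the upper.

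Tlr2, the lipoprotein receptor that pairs with TLR1 or TLR6, stood in the same order at 9.35, 4.63 and 1.33 FPKM, from about 239, 154 and 29 reads. It lies on chromosome 3 at 83836272 to 83841767 (minus strand, ENSMUSG00000027995.10). The level in the large intestine was 2.02 (1.64 to 2.48) times that in the lower and 7.05 (4.85 to 10.9) times that in the upper library. Between the small intestinal libraries the upper to lower ratio was 0.286 (0.182 to 0.421). The 3 levels thus differed by more than counting error, and the step from large to lower was smaller than that of Tlr1, with intervals of the ratio that do not overlap.

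Tlr4, the receptor for lipopolysaccharide, was at 5.33 and 0.508 FPKM in the large and lower libraries and was listed at 0 in the upper library. The estimated reads were about 184 and 23, and the large to lower ratio was 10.5 (6.71 to 16.8). A listed 0 can be a failed estimate, so no ratio to the upper library is given. A level of 0.1001 FPKM there would correspond to 3 reads. Tlr4 spans 66827584 to 66930284 on chromosome 4 (plus strand, ENSMUSG00000039005.13).

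Tlr5 encodes the receptor for flagellin, the protein of bacterial flagella. Its levels of 4.12, 0.478 and 0.042 FPKM came from about 112, 17 and 1 reads. The large intestine was high and both small intestinal libraries were under 1 FPKM. The large to lower ratio was 8.62 (5.10 to 15.2). The large to upper ratio of 98.1 has an interval of 17.1 to 3872, because the upper value rests on about 1 read. Tlr5 lies on chromosome 1 at 182954788 to 182976044 (plus strand, ENSMUSG00000079164.8).

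Tlr6, the other partner of TLR2, was under 1 FPKM everywhere, at 0.501, 0.141 and 0.210 FPKM from about 16, 6 and 6 reads. The large to lower ratio of 3.55 (1.29 to 10.8) excluded 1, and the large to upper ratio of 2.39 (0.860 to 7.22) did not. Tlr6 lies on the same chromosome and strand as Tlr1, at 64952031 to 64960097 (ENSMUSG00000051498.6). The Tlr6 value is uncertain because the coding sequences of Tlr1 and Tlr6 are in part identical. Of the 45 pairs of members, this was the only pair whose transcripts, as annotated, shared any window of 31 bases. Windows of 50 bases shared with Tlr1 made up 12.5% of those in the Tlr6 transcript. In the sources used here, the assignment of reads from such windows is not given. The level of Tlr6 was 1.55%, 2.04% and 7.79% of the Tlr1 level. The longest identical stretch, shown because a read within it fits both genes, is 229 bases long and lies within coding exons. It occupies bases 1468 to 1696 of the Tlr1 coding sequence (chr5:64925537-64925765, mm10, minus strand, exon 3 of 3) and bases 1507 to 1735 of the Tlr6 coding sequence (chr5:64953828-64954056, minus strand, exon 2 of 2).
Tlr1 and Tlr6 shared coding stretch: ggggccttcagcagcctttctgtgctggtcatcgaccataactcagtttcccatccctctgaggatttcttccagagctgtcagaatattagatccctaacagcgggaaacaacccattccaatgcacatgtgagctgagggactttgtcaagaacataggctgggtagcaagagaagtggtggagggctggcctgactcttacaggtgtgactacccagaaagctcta

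**Figure D2:**
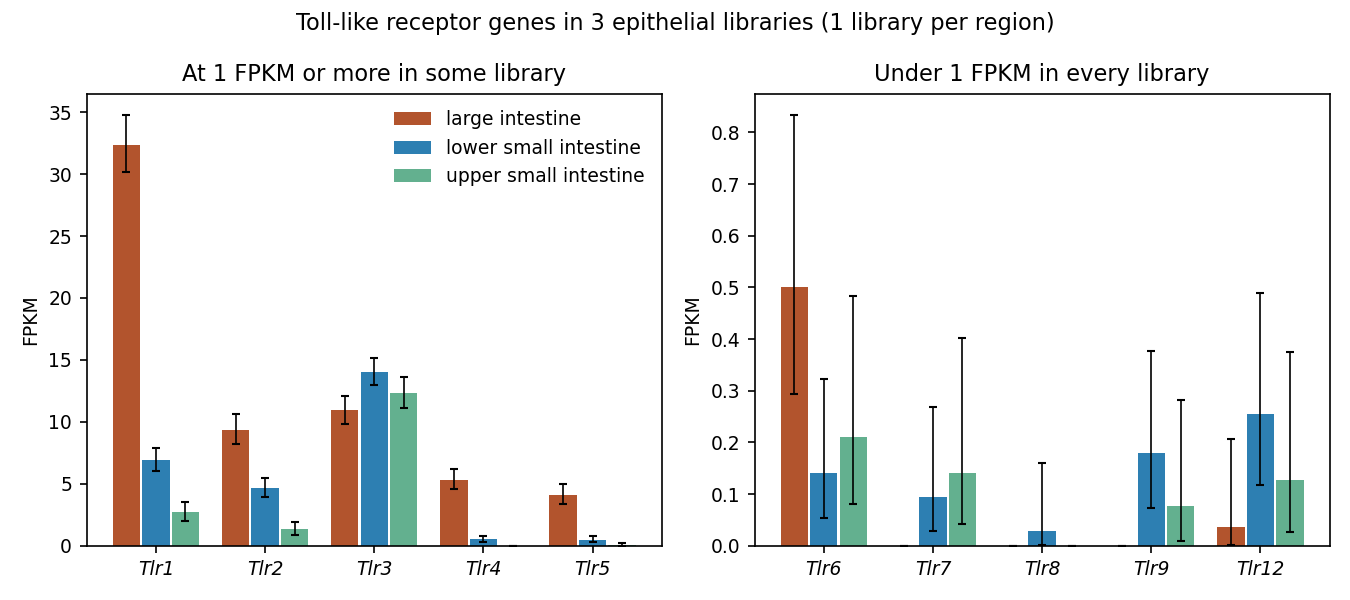
FPKM (y axis, linear, with a separate scale for each panel) of each of the 10 genes in the 3 libraries, with bars from 0 and lines for the exact Poisson 95% interval of the estimated reads; no line is drawn for a gene listed at 0. Tlr1, Tlr2, Tlr4 and Tlr5 are highest in the large intestine, Tlr3 lies between 10.9 and 14.0 FPKM, and the genes in the right panel are at 0.501 FPKM or less.

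Tlr3, which encodes an endosomal receptor for double-stranded RNA, was the one endosomal member above 1 FPKM, at 10.9, 14.0 and 12.3 FPKM from about 379, 631 and 371 reads. It lies on chromosome 8 at 45395665 to 45411080 (minus strand, ENSMUSG00000031639.12). The lower small intestine was highest, with a large to lower ratio of 0.779 (0.684 to 0.886). The large to upper ratio was 0.886 (0.766 to 1.03) and the upper to lower ratio 0.879 (0.771 to 1.0005), so neither of these differences was detectable at this depth. The order of the large and upper libraries is not fixed by these data. On the log2(FPKM + 1) scale the difference was -0.16 as deposited and 0.22 after all libraries were brought to 1 sum, a scaling that moved the median of all measured genes to 0.37. An annotated antisense gene, Gm45542, overlaps the 5′ part of Tlr3 on the other strand, and the sources used here do not say whether counting used strand.

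The remaining endosomal receptors were near the limit of detection. Tlr9, which senses DNA rich in unmethylated CpG, was listed at 0 in the large intestine and stood at 0.18 and 0.077 FPKM in the lower and upper libraries, from about 7 and 2 reads. Tlr7, a receptor for single-stranded RNA, was listed at 0, and at 0.094 and 0.140 FPKM, from about 4 reads in each small intestinal library. Tlr8, its neighbour on the X chromosome, was listed at 0 in the large and upper libraries and reached 0.028 FPKM, about 1 read, in the lower. Tlr12 was at 0.037, 0.255 and 0.127 FPKM, from about 1, 9 and 3 reads. In mm10 Tlr9 lies on chromosome 9 at 106222598 to 106226883, Tlr12 on chromosome 4 at 128615443 to 128618619, Tlr7 on chromosome X at 167304929 to 167330558 and Tlr8 beside it at 167242696 to 167264329, all protein coding. Tlr7, Tlr9 and Tlr12 were lowest or listed at 0 in the large intestine, but on 9 reads or fewer in any library, and a listed 0 can be a failed estimate. Their differences between the small intestinal libraries lay within counting error, with upper to lower ratios of 1.49 (0.278 to 8.02), 0.428 (0.0433 to 2.24) and 0.498 (0.0867 to 1.996) for Tlr7, Tlr9 and Tlr12. For Tlr12 the intervals of the large to lower ratio of 0.145 (0.0033 to 1.04) and the large to upper ratio of 0.291 (0.0055 to 3.60) also included 1. Tlr11 and Tlr13, outside the members and named after their values were seen, were listed at 0 in the large intestine and were at 0.084 FPKM or less elsewhere.

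By level, the order in the large intestine was Tlr1, Tlr3, Tlr2, Tlr4 and Tlr5. The intervals of Tlr3 (9.85 to 12.1 FPKM) and Tlr2 (8.21 to 10.6 FPKM) overlapped there, as did those of Tlr4 (4.58 to 6.15 FPKM) and Tlr5 (3.40 to 4.97 FPKM), while Tlr1 stood clear of Tlr3. In both small intestinal libraries the order was Tlr3, Tlr1 and Tlr2, with Tlr3 at 2.03 times Tlr1 in the lower and 4.58 times Tlr1 in the upper library. In the lower library the intervals of Tlr1 and Tlr2 (3.94 to 5.44 FPKM) did not overlap, and in the upper library that of Tlr2 (0.876 to 1.88 FPKM) lay just below that of Tlr1. Tlr4 and Tlr5 in the lower library, at 0.325 to 0.770 and 0.282 to 0.774 FPKM, could not be told apart.

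**Figure D3:**
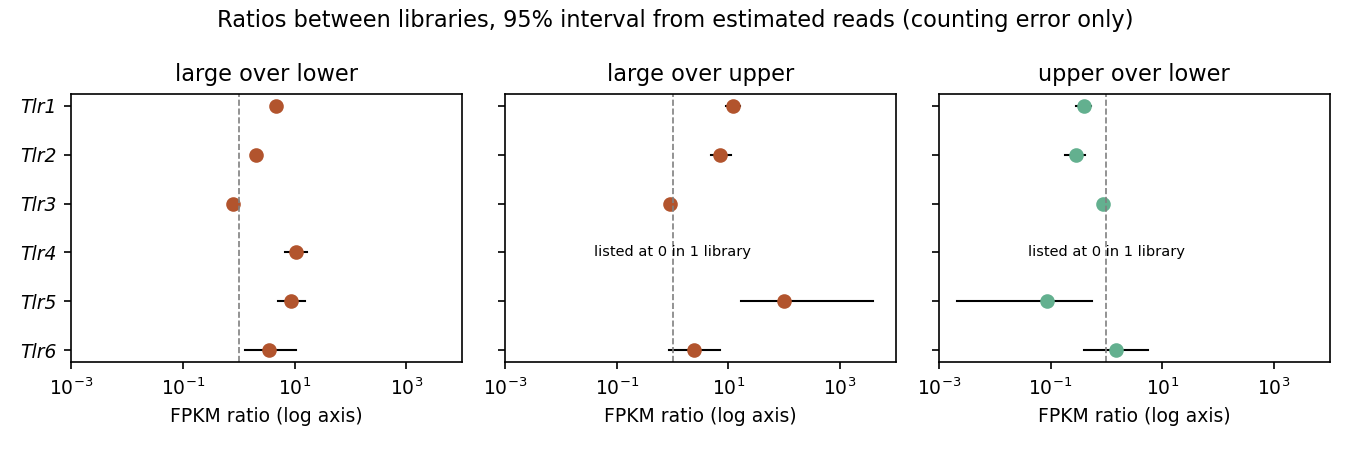
FPKM ratio between 2 libraries (x axis, log scale) for Tlr1 to Tlr6, with points for the ratio, lines for its Clopper-Pearson 95% interval and a dashed line at 1. In the large over lower panel Tlr1, Tlr2, Tlr4, Tlr5 and Tlr6 lie above 1 and Tlr3 lies at 0.779.

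The members were then read against all genes by a rule of size. Genes that reached 1 FPKM in at least 1 of the 2 libraries counted as measured, and were called higher or lower at an absolute difference of at least 1 in log2(FPKM + 1), a scale that understates differences of low genes. Of the 10 members, 5 were measured in each comparison with the large intestine. Tlr4 and Tlr5 passed through the large library alone, so neither could be called lower in it. Against the lower small intestine, Tlr1, Tlr4 and Tlr5 were called higher in the large intestine, with differences of 2.08, 2.07 and 1.79. Tlr2 missed the rule at 0.88, and no member was called lower. Over all 12376 measured genes, 9.75% were called higher and 10.5% lower, with a median difference of 0.00.

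Against the upper small intestine, Tlr1, Tlr2, Tlr4 and Tlr5 were called higher in the large intestine and none lower, with differences of 3.17, 2.15, 2.66 and 2.30. The call of Tlr4 takes its listed 0 in the upper library as a level, and a listed 0 can be a failed estimate. In that comparison 11.2% of 12350 measured genes were called higher and 11.7% lower. The large intestinal library serves in both comparisons, so the second is not a repeat of the first. Within the small intestine 3 members were measured, and Tlr1 and Tlr2 were called lower in the upper library, at -1.10 and -1.28, against 2.92% of 11941 measured genes called lower and 3.92% called higher. Tlr3 was within the rule in all 3 comparisons.

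Markers of leukocytes, which can also express these receptors, had their lowest sums in the large intestine. Pan-leukocyte markers (Ptprc, Coro1a, Laptm5, Tyrobp and Fcer1g) summed to 9.24, 80.0 and 88.7 FPKM, and each of the 5 was lowest in the large intestine. Markers of macrophages, dendritic cells and monocytes summed to 3.51, 29.3 and 16.4 FPKM over 11 genes, 9 of them lowest in the large intestine. Csf1r, the receptor for macrophage colony-stimulating factor, was at 0.119 FPKM in the large intestine, Adgre1 (F4/80) at 0.036 FPKM, and Fcgr1 and Flt3 were listed at 0 there. Flt3 was listed at 0 in the upper library too, and Fcgr1 was at only 0.071 and 0.053 FPKM in the lower and upper libraries. Mrc1 was lowest in the upper library, at 0.235, 0.378 and 0.196 FPKM. Lyz2 was the most abundant of the 11 in the large intestine, at 1.16, 7.72 and 5.47 FPKM, followed there by Itgam at 0.853 and Cd68 at 0.719 FPKM. The 4 neutrophil markers in the files summed to 0.667, 3.18 and 1.44 FPKM, with 2 of them lowest in the large intestine. S100a9 was listed at 0 in the large intestine alone, and S100a8 in both the large and upper libraries. The part of leukocytes in the values of the surface receptors was not tested.

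Tlr7, Tlr8, Tlr9 and Tlr12 together summed to 0.037, 0.557 and 0.344 FPKM, lowest in the library where leukocyte markers were lowest. T cell markers summed to 12.1, 562 and 556 FPKM over 10 genes, and B and plasma cell markers to 0.097, 30.7 and 30.1 FPKM over 6 genes, of which 5 were listed at 0 in the large intestine. The part of leukocytes in the values of these 4 receptors was not tested. In such bulk samples, fewer cells of a type and less RNA per cell cannot be told apart. Paneth cell markers, from a secretory cell at the base of small intestinal crypts, summed to 32.8, 17736 and 17510 FPKM, and their part in the receptor values was not tested. Enterocyte markers of the small intestine (5 genes) summed to 307, 9556 and 15030 FPKM and colonocyte markers (5 genes) to 7408, 105 and 104 FPKM. Car1 held 6414 FPKM of the latter sum in the large intestine, 4 of the 5 colonocyte markers were highest there, and Ceacam20 was highest in the lower library at 39.7, 56.1 and 31.1 FPKM. Markers of fibroblasts, muscle and endothelium were low in every library, at 4.01, 6.69 and 4.21 FPKM summed over 10 genes.

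**Figure D4:**
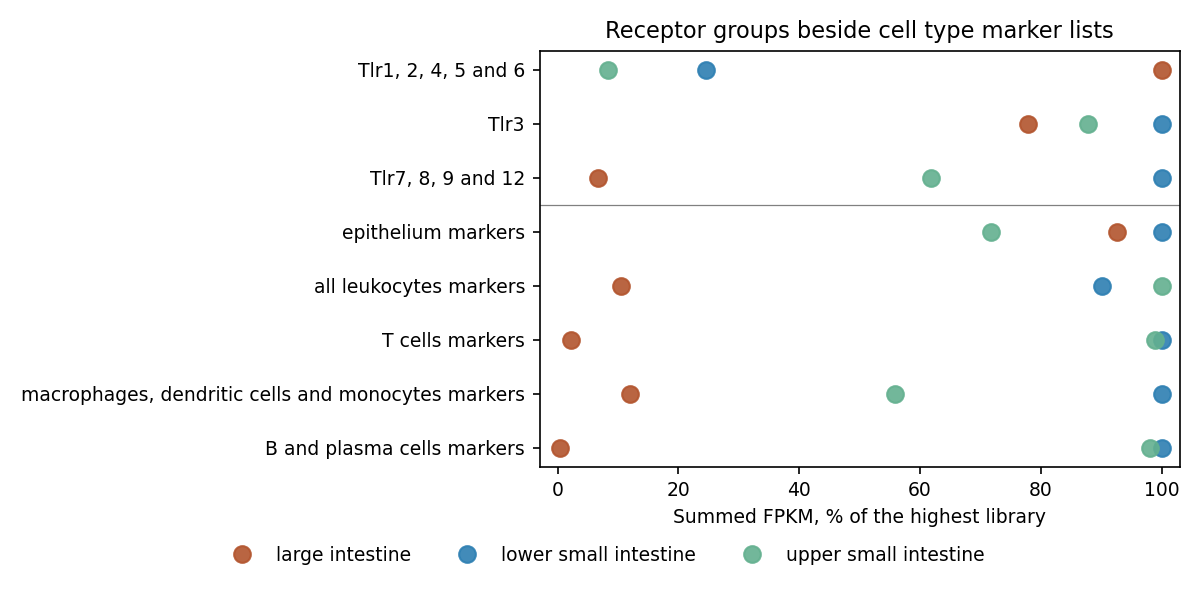
Summed FPKM of 3 receptor groups (above the line) and 5 marker lists (below the line), as a percentage of the highest library (x axis), with 1 point per library. The surface receptors stand at 24.5% and 8.27% of their large intestinal sum in the lower and upper libraries. Pan-leukocyte markers in the large intestine stand at 10.4% of their highest sum.

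Promoter windows of the receptors that were higher in the large intestine are printed next, so that the sequence near their starts can be seen beside the levels. RefSeq windows (GRCm38.p6, 250 bases before to 50 after a start) were found for 8 of the 10 members; Tlr4 and Tlr7 were not matched. The rule took members called higher in both comparisons, Tlr1 with 2 annotated starts and Tlr5, and Tlr2 was added after its values were seen. Sequences run 5′ to 3′ on the strand of the gene, and capitals mark matches to 6 motifs searched on both strands.
Tlr1, chr5:64933509-64933808, minus strand: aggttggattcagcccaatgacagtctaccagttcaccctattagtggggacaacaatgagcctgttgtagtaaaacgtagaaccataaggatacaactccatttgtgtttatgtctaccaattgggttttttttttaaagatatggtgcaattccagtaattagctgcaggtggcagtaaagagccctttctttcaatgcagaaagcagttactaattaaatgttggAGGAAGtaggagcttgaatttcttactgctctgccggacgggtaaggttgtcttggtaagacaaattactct
Tlr1, chr5:64932650-64932949, minus strand: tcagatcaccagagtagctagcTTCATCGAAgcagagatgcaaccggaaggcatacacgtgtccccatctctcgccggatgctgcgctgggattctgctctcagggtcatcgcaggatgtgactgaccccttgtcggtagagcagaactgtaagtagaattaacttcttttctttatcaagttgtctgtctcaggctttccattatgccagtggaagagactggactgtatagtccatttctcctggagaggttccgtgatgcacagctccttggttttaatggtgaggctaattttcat
Tlr2, chr3:83841559-83841858, minus strand: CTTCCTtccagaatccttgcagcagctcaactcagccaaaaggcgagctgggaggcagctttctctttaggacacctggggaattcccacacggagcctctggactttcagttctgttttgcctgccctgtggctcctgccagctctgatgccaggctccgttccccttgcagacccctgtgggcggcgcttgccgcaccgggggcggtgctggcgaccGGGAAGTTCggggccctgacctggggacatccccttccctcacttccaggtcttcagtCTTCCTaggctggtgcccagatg
Tlr5, chr1:182954538-182954837, plus strand: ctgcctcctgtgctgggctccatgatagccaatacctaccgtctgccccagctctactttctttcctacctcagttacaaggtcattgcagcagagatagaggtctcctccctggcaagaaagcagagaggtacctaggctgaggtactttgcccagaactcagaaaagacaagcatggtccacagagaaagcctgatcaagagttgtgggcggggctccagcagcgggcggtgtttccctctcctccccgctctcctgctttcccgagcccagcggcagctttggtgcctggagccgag

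The kappa B type motif, GGGANNTTC, stands in 3.9% of 32851 RefSeq promoters of the same length. It matched the Tlr2 window 31 bases before the start. The Tlr3 window, from the member within the rule of size described above, also held a match, 211 bases before its start. For the kappa B type, only the letters GGGANNTTC were searched. The Tlr2 window also holds gggaattccc, left in lower case because GGGANNTTC cannot match it. Other forms of the kappa B type motif were not searched, so these matches are not a full count of such sites. The ETS/PU.1-type motif, AGGAAG, stands in 35.4% of promoters. The upstream Tlr1 window held 1 such match 22 bases before the start, and the Tlr2 window 2 on the opposite strand. The STAT-type motif, TTCNNNGAA, stands in 8.3% of promoters, and matched the downstream Tlr1 window 228 bases before the start. The HNF4-type motif, CAAAGTCCA, which stands in 0.5% of promoters, was in none of the 4 windows shown. The CDX-type motif, TTTATNG, stands in 10.9% of promoters and was likewise in none of the 4. A TATA box, searched as the 6 letters TATAAA, stands in 13.6% of promoters and was in none of them, and the search lets it overlap the CDX-type motif in part. No match to any of the 6 motifs was found in the Tlr5 window. Tlr1, Tlr2 and Tlr5 thus shared no one motif of this set, and a match describes letters, not binding.

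Genes that serve the receptors were taken next. Among co-receptors, chaperones and ligand carriers, the comparison of large with lower called 1 of 8 measured genes higher and 1 lower (median -0.19), and that with upper 1 of 7 higher and 1 lower (median 0.28). These counts are near the shares of all genes, 9.75% higher and 10.5% lower in the first comparison and 11.2% and 11.7% in the second. Cd14, which hands lipopolysaccharide to TLR4, was the one higher in both, at 15.7, 6.07 and 5.61 FPKM. Cd36, a fatty acid and lipoprotein receptor that can aid TLR2, was the one lower in both, listed at 0 in the large intestine and at 2.11 and 20.0 FPKM in the others. Ly96, which encodes the MD-2 subunit that TLR4 needs to bind lipopolysaccharide, was at 9.39, 7.24 and 5.72 FPKM and within the rule. The chaperone Hsp90b1 (gp96), which folds Toll-like receptors among other proteins, was at 200.2, 383 and 286 FPKM. Unc93b1, which carries endosomal receptors out of the endoplasmic reticulum, was at 17.5, 22.3 and 20.1 FPKM, so that it was present where Tlr7 and Tlr9 were listed at 0. Ly96 and Unc93b1 were named for their roles after their values were seen.

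Endosomal proteases cleave TLR3, TLR7 and TLR9 into their active forms. Ctsl and Ctss, among 4 measured, were called higher in the large intestine against either small intestinal library and none was lower. Over all genes, 9.75% were called higher and 10.5% lower against the lower library, and 11.2% and 11.7% against the upper. Ctss passed narrowly, at 1.02 and 1.16. When 1.5 log2 units were required, 1 of the 4 was higher against the lower library and 0 against the upper. Ctsl was at 47.8, 12.7 and 16.7 FPKM, and Ctss, also a protease of antigen presentation, at 233, 115 and 104 FPKM. The list's medians were 0.33 against the lower and 0.68 against the upper library. Ctsb, at 75.9, 97.5 and 106 FPKM, was within the rule.

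Among adaptors, kinases with ubiquitin ligases and transcription factors, 32 of 35 measured genes were within the rule between the large and lower libraries, with 1 higher and 2 lower, beside 9.75% and 10.5% of all genes. Against the upper library 31 of 34 were within it, with 2 higher and 1 lower, beside 11.2% and 11.7% of all genes. Medians against the lower and upper libraries were -0.57 and -0.60 for adaptors, -0.24 and -0.05 for kinases with ubiquitin ligases, and -0.06 and 0.02 for transcription factors, beside 0.00 over all measured genes in both comparisons. Myd88, the adaptor of all members but TLR3, was at 16.8, 23.3 and 20.998 FPKM. Ticam1, which encodes TRIF, the adaptor of TLR3 and of TLR4 in endosomes, was at 12.9, 21.5 and 25.3 FPKM, and Tirap, which bridges TLR2 and TLR4 to MyD88, at 5.07, 4.15 and 3.12 FPKM. Differences of all 3 stayed under 1 log2 unit, while Pik3ap1, a phosphoinositide 3-kinase adaptor also found in B cells, was called lower against the lower library, at 0.77, 10.4 and 2.29 FPKM. Peli2, a ubiquitin ligase that acts on IRAK kinases, was the kinase and ligase gene higher in both comparisons, at 3.19, 0.581 and 0.445 FPKM. Tbk1, the kinase that activates IRF3, was lower than in the upper library alone, at 21.1, 36.9 and 46.5 FPKM. Irf8, an interferon regulatory factor also made by leukocytes, was lower than in the lower library, at 28.8, 97.2 and 53.0 FPKM, and Atf3, a stress-induced factor, passed the rule against the upper library at 252, 152 and 125 FPKM. Fos was the most abundant of the transcription factors at 724, 486 and 535 FPKM and was within the rule.

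Of 16 measured inhibitors of the pathway, 5 were called lower and 1 higher against the lower library (median -0.69), where 10.5% and 9.75% of all genes were. The 5 became 3 under either rescaling of the libraries and 2 when 1.5 log2 units were required, and were 9 when a 1.5-fold difference sufficed. Against the upper library 2 were lower and 1 higher (median -0.38), near the 11.7% and 11.2% of all genes, and rescaling to 1 sum turned this to 1 lower and 2 higher. Socs1, which restrains cytokine and Toll-like receptor signals, was at 1.45, 11.5 and 6.08 FPKM. Zc3h12a (regnase-1), an RNase that degrades cytokine transcripts, was at 11.5, 44.6 and 23.8 FPKM and missed the rule against the upper library at -0.99. Nfkbia, encoding the inhibitor I kappa B alpha that NF-kappa B itself induces, was at 62.6, 129 and 113 FPKM, and Inpp5d, a phosphatase of leukocytes, at 0.622, 3.14 and 2.26 FPKM. The exception was Pparg, a nuclear receptor of lipid metabolism that also dampens NF-kappa B, at 54.4, 3.21 and 12.2 FPKM. The inhibitors Socs1 and Inpp5d are also expressed by leukocytes, whose pan-leukocyte markers summed to 9.24 FPKM in the large intestine and 80.0 FPKM in the lower, and the part of leukocytes in these differences was not tested.

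Genes that Toll-like receptor signals can induce were divided. In the large intestine 3 of 17 measured were higher than in the lower library and 7 were lower (median -0.72), beside 9.75% and 10.5% of all genes. Against the upper library 3 of 18 were higher, and 8 were lower (median -0.44), beside 11.2% and 11.7%. Saa1, encoding an acute-phase protein, had the same order as Tlr1, Tlr2, Tlr4 and Tlr5, at 1328, 337 and 0.944 FPKM. Saa3 had that order too, at 5.74 and 1.30 FPKM and listed at 0 in the upper library. Saa2 did not, at 1.90 and 2.30 FPKM and listed at 0 in the upper library. Sharing of reads among the Saa genes was not checked. Reg3g, a lectin that kills Gram-positive bacteria and depends on MyD88, ran the other way between large and small intestine, at 114, 12929 and 3945 FPKM. Il18, an epithelial cytokine, was low in the lower library at 123, 37.7 and 131 FPKM. Ccl5, a chemokine of cytotoxic T cells, had 7.43, 273 and 251.02 FPKM. Il1b, a cytokine of myeloid cells, had 0.682, 9.61 and 8.86 FPKM, so both were lowest in the large intestine. Pan-leukocyte and Paneth cell markers also had their lowest sums there. The part of these cells in the differences of the output genes was not tested. Pigr, which carries immunoglobulin A across the epithelium, was at 1435, 1275 and 1582 FPKM and was within the rule.

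The calls for other sensors of microbes rest on 2 or 3 genes in each direction. In the large intestine 2 of 17 measured were higher than in the lower library and 3 were lower (median -0.22), beside 9.75% and 10.5% of all genes. Against the upper library 3 of 16 were higher, and 2 were lower (median -0.13), beside 11.2% and 11.7%. Rescaling to 1 sum made these 5 higher and 1 lower of 17. Aim2, a cytosolic DNA sensor, had the same order as Tlr1 at 28.6, 5.38 and 2.10 FPKM. Naip1 was at 41.8, 18.3 and 13.1 FPKM, but reads may be shared among the near-identical Naip genes, so its value is uncertain. Ddx58, encoding the RNA sensor RIG-I, had the opposite order at 5.20, 14.4 and 20.9 FPKM, whereas Tlr3, which also senses RNA, was within the rule. Pglyrp1, a peptidoglycan recognition protein, was at 216, 224 and 113 FPKM.

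**Figure D5:**
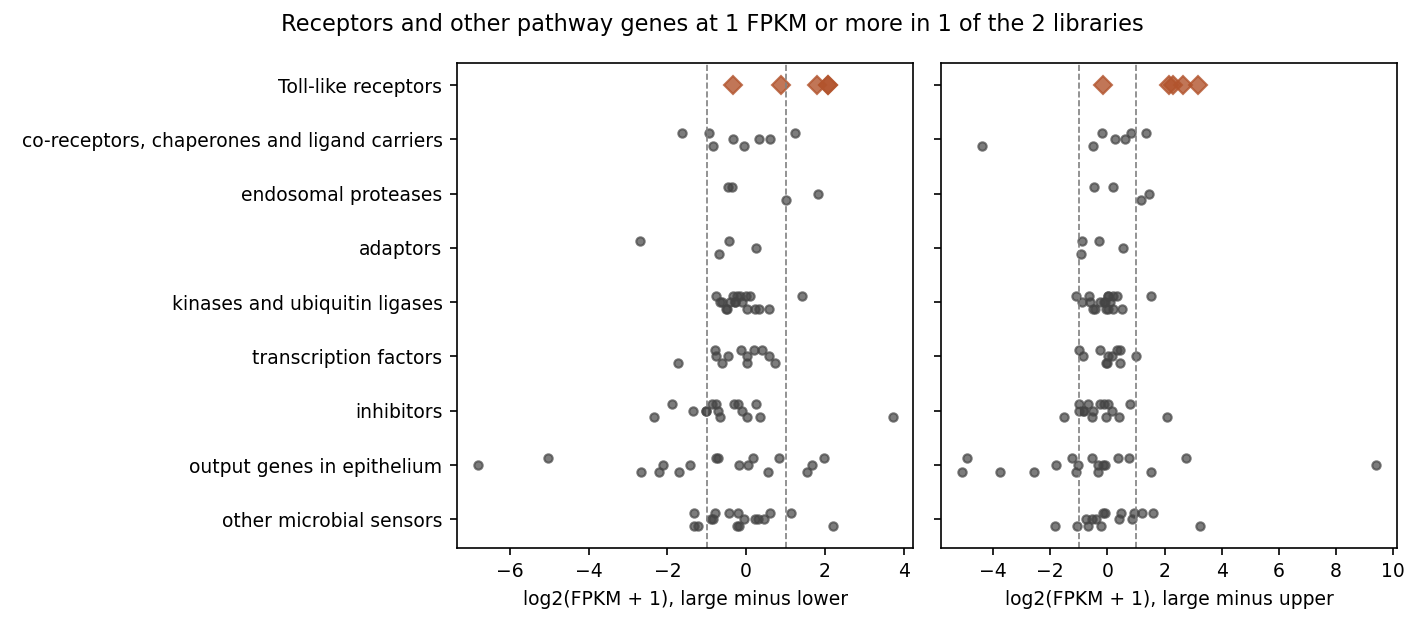
Difference in log2(FPKM + 1), large minus lower (left) and large minus upper (right), for measured Toll-like receptor genes (diamonds) and measured genes of 8 other lists (circles, spread vertically for legibility only), with dashed lines at -1 and 1. Of the receptors, Tlr3 lies within the lines in both panels and Tlr2 in the left panel alone, and most adaptors, kinases and transcription factors lie within them.

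The genes nearest in pattern to the 3 most abundant members were taken by Euclidean distance over log2(FPKM + 1) in the 3 libraries, a description that 3 points per gene make loose. Pde2a, a phosphodiesterase, was nearest to Tlr1, at 31.1, 7.46 and 2.63 FPKM and a distance of 0.12 log2 units, followed by Ybx2 at 0.21 and Capn2 at 0.38. Mylip was nearest to Tlr2 at a distance of 0.17, followed by Celsr1 at 0.27 and 6430548M08Rik at 0.28. Tlr3 had closer neighbours, Mettl1, Nob1 and Rlim, at distances of 0.02, 0.04 and 0.04.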

How the data were processed

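Each file deposited by the authors holds 1 value per gene, read here as FPKM. No unit is named in the file headers, which give only the library, so it was inferred from Cufflinks and from the spacing of low values. Per the submitters' processing notes, TopHat2 2.0.13, Bowtie2 2.2.3, SAMtools 0.1.19 and Cufflinks 2.2.1 were used with mm10, without stated roles. Neither annotation nor strand setting is given in the sources used here. Library sums were 521651, 646262 and 693218 FPKM for large, lower and upper, yet median ratios to the geometric mean lay between 0.998 and 1.01, so a common scale had been set or was shared. Coordinates and transcript lengths came from GENCODE M21 (GRCm38, the assembly of mm10). All 10 members matched a symbol there.

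Differences were taken as log2(FPKM + 1) in Python 3.11.15 with pandas 2.3.3 and SciPy 1.17.1, over all genes. The calls and intervals were also run on simulated Poisson reads. These were drawn with the same fitted worth of 1 read, so the run cannot show error in that worth or spread between animals. The worth of 1 read was the step, in FPKM per read and kilobase, that best divided low values of protein-coding genes with 1 transcript of at least 1500 nt, and was 0.118, 0.091 and 0.136. Of 362, 386 and 338 such genes, 65.5%, 65.8% and 72.5% lay within 0.15 read of a whole number. The steps were fitted to these same values and are estimates, so no p-value on counts was computed. Error in the steps is not part of the intervals. Reads per member used the shortest transcript with the full coding sequence.

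The members, the 8 pathway lists, the 10 marker lists and the rules were chosen with earlier results of these data known. All members were named. From each pathway list the rule named the 3 measured genes of largest absolute difference per comparison and the most abundant gene per library, and the text describes a part of these. Alternatives varied the pseudocount, the filter, the scaling and the size that counts as a call.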

Additional observations from a re-analysis of the deposited data

How the results depend on the processing

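The 3 comparisons were recomputed under 8 alternatives each. Counts of Toll-like receptor genes called higher or lower stayed within 1.5 times of the reported count in 46 of 48 cases. This share is in part fixed in advance. Dropping the filter could not change a call, since a difference of 1 in log2(FPKM + 1) already needs 1 FPKM. Counts that moved from 3 to 2 or 4 were within the limit, and reported counts of 0 stayed at 0. For upper against lower small intestine, the 2 members called lower became 1, Tlr1, when 5 FPKM was required, since Tlr2 is then not measured, and 0 when 1.5 log2 units were required. The difference of Tlr3 between large and upper small intestine was reversed to 0.22 by rescaling to the same sum, which multiplies all values of a library by the same factor. The same rescaling called Tlr2 higher in large than lower small intestine, at 1.15, as did calling at 1.5-fold. It moved the median of all measured genes to 0.28 against the lower and 0.37 against the upper library, and the share of calls that were higher from 48.2% to 64.0% and from 49.0% to 69.0%. Requiring 5 FPKM left Tlr5 unmeasured. Among counts of the pathway lists, 75 of 384 moved by over 1.5 times, those of inhibitors, co-receptors and other sensors among them. No paired analysis was possible because each region has 1 library. Depth limits Tlr6, Tlr7, Tlr8, Tlr9 and Tlr12, each at about 16 estimated reads or fewer.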
